A study of Mus musculus with 31 samples.

Results

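The data described here are the response of mouse white fat to 2 days of cold, compared between the inguinal depot (iWAT) and the epididymal depot (eWAT). The quantity is a difference of differences, here called the depot difference: the log2 change from day 0 to day 2 in iWAT minus the same change in eWAT. It uses the day 0 and day 2 libraries of both white depots, 13 of the 31 RNA-seq libraries in the series. A positive depot difference means a larger increase, or a smaller decrease, in iWAT than in eWAT.

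All mice were male C57BL/6J aged 8 weeks with no named allele, and all were first held at thermoneutrality for 8 days. The day 0 mice had no cold exposure, and the day 2 mice were then kept at 4 °C for 2 days. There were 4 iWAT libraries at day 0, 3 iWAT libraries at day 2, 3 eWAT libraries at day 0 and 3 eWAT libraries at day 2, each made from 1 µg of total RNA of a whole dissected depot. The labels name the libraries by depot and number (iWAT516, iWAT517, iWAT518 and iWAT522 at day 0, iWAT532, iWAT538 and iWAT539 at day 2, and the same numbers but the fourth in eWAT). They do not say that a number is an animal, so p-values measure the spread between these libraries.

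White adipocytes store triglyceride. In the cold, sympathetic nerves release noradrenaline, which acts through beta-adrenergic receptors and cyclic AMP to start lipolysis and to switch on thermogenic genes. In subcutaneous depots such as iWAT some adipocytes then become beige cells, which are rich in mitochondria and carry the uncoupling protein UCP1, while epididymal fat of mice is known to brown little. The comparison asks how far the early transcript changes of these depots differ.

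Depth was 1.51 to 4.03 M counts a library, and 10318 RefSeq transcripts (features) passed the filter on low counts. The adipocyte marker list (Adipoq, Fabp4, Plin1 and others) summed to 11970 to 53490 CPM (counts after putting each library on a common total) over the 13 libraries, so the labelled tissue had its defining markers in each group. Lymphocyte markers summed to 2563 to 4145 CPM in the 7 iWAT libraries and 18.4 to 56.2 CPM in the 6 eWAT libraries. Within groups, libraries also spread along a main axis that holds 43.6% of the within-group variance of these 13 libraries. Each library was given a score on the main within-group axis of the other depots of the series only. The iWAT and eWAT libraries were thus scored on different axes, and how far these match the axis of the 13 libraries was not tested. In iWAT the scores at day 0 were 26, 34.4, 47 and -62.4, and those at day 2 were -50.9, -8.7 and -41.2. In eWAT they were -22.7, -37.3 and 45.3 at day 0, then 44.9, 60.3 and -25.6 at day 2. Day 2 libraries therefore sat lower than most day 0 libraries in iWAT. In eWAT the day 2 libraries eWAT532 and eWAT538 sat higher than most day 0 libraries, while eWAT539 sat lower than most. The score thus moved in part with the depot difference, and values from a fit with the score as a covariate are given beside the results. Its part in the results was not otherwise tested.

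**Figure D1:**
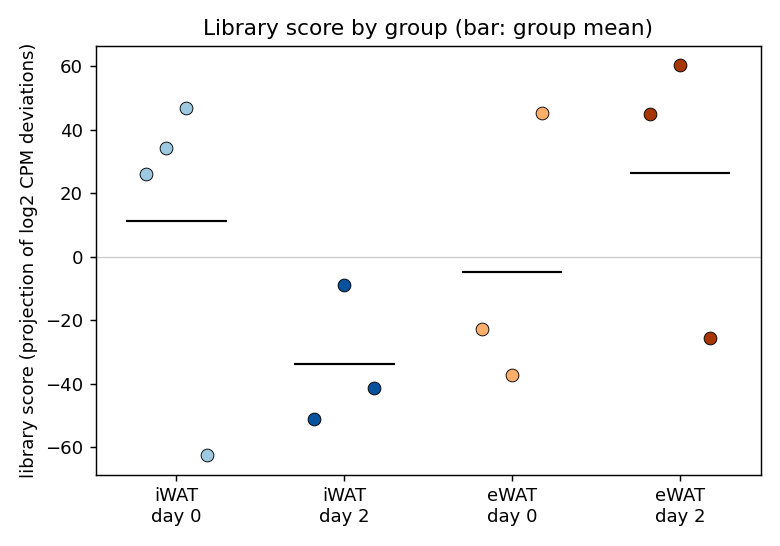
Library score of each of the 13 libraries by depot and day (y axis, projection of log2 CPM deviations on the within-group axis of the other depots), with a bar at each group mean. The 3 iWAT day 2 libraries lie between -50.9 and -8.7, while 2 of the 3 eWAT day 2 libraries lie at 44.9 and 60.3.

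No feature had a depot difference that passed the test. By the edgeR quasi-likelihood test over all 10318 features, 0% were called higher and 0% lower at an adjusted p of 0.05, and the smallest adjusted p was 0.697. At an unadjusted p under 0.05 there were 171 features with a positive depot difference (1.66%) and 404 with a negative one (3.92%). The median depot difference over all features was -0.13 on the log2 scale, and by sign alone 44.6% of features were positive and 55.3% negative. DESeq2 called 1 feature higher, Ucp1, and 1 lower, Atp6v0a4. The fitted value of Atp6v0a4 was -20.17 (SE 3.75), a size that libraries of this depth cannot measure, so it is not read as a fold. By contrast, limma voom called 0 and put 300 positive and 198 negative features under an unadjusted p of 0.05. These unadjusted counts moved with single libraries. They were 547 and 776 without iWAT522, 284 and 1131 without eWAT518, and 783 and 808 without eWAT539. They were 96 and 258 without eWAT516, 96 and 255 without eWAT517, 106 and 414 without iWAT538, 111 and 213 without iWAT539, and 113 and 227 without eWAT538.

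Within each depot the day 2 change also gave 0 calls in the same fit. In iWAT 437 features were above (4.24%) and 753 below (7.3%) their day 0 level at an unadjusted p under 0.05, against 77 (0.746%) and 67 (0.649%) in eWAT. These counts moved with the tool and with single libraries. For iWAT, limma voom gave 536 above and 355 below, so the larger side turned. Without iWAT516 there were 249 above and without iWAT522 862, and below there were 455 without iWAT538 and 391 without iWAT539. For eWAT, 5.15% of features were above and 0.866% below without eWAT518, and the share above was then larger than the 4.29% of iWAT in that fit. The eWAT counts were 132 and 232 without eWAT532, 22 and 50 without eWAT538, and 157 and 335 without eWAT539. DESeq2 called 73 features higher and 73 lower in iWAT at an adjusted p of 0.05, and 0 in eWAT. Those 73 and 73 calls were among 10256 features that DESeq2 tested. Among the 60 genes named by rule, 31 were called by DESeq2 in iWAT, 19 higher and 12 lower. Many of the named genes were chosen for a small p in the same libraries, so this count is no separate support. All 3 iWAT day 2 libraries lay above all 4 day 0 libraries for 719 features (6.97%) and below them for 468 (4.54%). In eWAT the day 2 and day 0 libraries did not overlap for 247 features above (2.39%) and 268 below (2.6%). Of the 171 features on the positive side of the depot difference, 135 had the larger change in iWAT, as did 372 of the 404 on the negative side. These features were picked on that same difference, and no such share over all features is given here. A group without any count occurred in 5 of the 171 and 65 of the 404, against 203 of all 10318 features. Groups of 4 and 3 in iWAT and 3 and 3 in eWAT do not give the same precision, and whether more features change in iWAT than in eWAT was not tested.

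Thermogenic genes had the highest median depot difference of the gene lists described here. Of the 17 tested members of a list of thermogenic and brown adipocyte genes, 0 passed the adjusted threshold, 4 were positive at an unadjusted p under 0.05 (1.66% of all features were), and 14 had a positive depot difference against 44.6% of all features. The median of the list was 1.06 against -0.13 over all features, and 2.04 in the fit with the library score. It ran from 0.77 without iWAT516 to 1.45 without iWAT517. All 3 day 2 libraries were above all day 0 libraries for 9 members in iWAT (6.97% of all features) and for 1 member, Dio2, in eWAT (2.39%). Genes with very few eWAT counts, such as Cidea, Elovl3 and Otop1 below, enter such tallies with a sign set mainly by iWAT. The list was not recounted without genes of that kind.

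Ucp1, which encodes the protein that lets protons leak across the inner mitochondrial membrane and so releases heat, lies at chr8:83290348-83298456 (GRCm38.p6). In iWAT it stood at 266.7, 576.5, 86.4 and 51.4 CPM in the day 0 libraries and at 9693, 6811 and 3927 CPM in the day 2 libraries. The eWAT values were 2.87, 12.9 and 11.3 CPM at day 0 and 2.02, 11.7 and 1.08 CPM at day 2. The iWAT groups did not overlap, while the eWAT groups did, and every eWAT library was below every iWAT library. The log2 change was 4.79 (SE 0.96) in iWAT and -0.88 (SE 0.99) in eWAT, a depot difference of 5.67 (SE 1.37, unadjusted p = 0.00115, adjusted p = 0.697 by edgeR). With DESeq2 it was 5.63 (SE 1.27, adjusted p = 0.0469), and with the library score 7.76 (SE 1.55). Leaving out each library in turn gave 5.20 to 7.31. The gap between depots was 4.77 at day 0 and 10.44 at day 2 on the log2 scale. On the scaling of all 31 libraries, Ucp1 in iWAT at day 2 (3445 to 8540 CPM) overlapped interscapular brown fat at day 0 (5125 to 9531 CPM), with its lowest library below that range.

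Fabp3, a fatty acid binding protein of heart, muscle and brown fat (chr4:130308738-130315463), had a like pattern. Its iWAT values were 32.1, 85.6, 5.62 and 12.3 CPM at day 0 and 572.7, 498.2 and 364.9 CPM at day 2. Its eWAT values were 15.7, 1.41 and 15.8 CPM at day 0 and 5.48, 6.17 and 1.89 CPM at day 2. In iWAT the day 2 libraries were all above the day 0 libraries, and in eWAT the groups overlapped. The depot difference was 5.08 (SE 1.29, unadjusted p = 0.0017, adjusted p = 0.697), and 6.47 (SE 1.35) with the library score.

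Dio2, the deiodinase that makes active thyroid hormone inside the adipocyte (chr12:90724552-90739038), differed from both. Its iWAT values were 1.62, 15.2, 1.4 and 1.99 CPM at day 0 and 93.5, 73.7 and 31 CPM at day 2. Its eWAT values were 0.44, 0.47 and 0.56 CPM at day 0, which is 2 counts in each library and under the floor of 3 counts per library, and 2.31, 12 and 3.78 CPM at day 2. Day 2 libraries lay above all day 0 libraries in both depots. The fitted log2 change was 3.64 (SE 0.82) in iWAT and 3.52 (SE 1.05) in eWAT, where it starts from those few counts, and the fitted depot difference was 0.12 with an SE of 1.33 when the errors of both changes are added in squares. The eWAT size is therefore poorly measured. An interval that wide does not show that the depots acted alike, and the difference took either sign when single libraries were left out.

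The promoters of Ucp1, Fabp3 and Dio2 are shown because the first 2 genes differed most between the depots among thermogenic genes while Dio2 was higher at day 2 in both. Each is 300 bases from RefSeq (GRCm38.p6), written 5′ to 3′ on the strand of the gene, and runs over chr8:83290098-83290397 on the plus strand for Ucp1, chr4:130308488-130308787 on the plus strand for Fabp3 and chr12:90738989-90739288 on the minus strand for Dio2. Capitals mark the cyclic AMP response element TGACGTCA or its core TGACG, searched on both strands.
Ucp1: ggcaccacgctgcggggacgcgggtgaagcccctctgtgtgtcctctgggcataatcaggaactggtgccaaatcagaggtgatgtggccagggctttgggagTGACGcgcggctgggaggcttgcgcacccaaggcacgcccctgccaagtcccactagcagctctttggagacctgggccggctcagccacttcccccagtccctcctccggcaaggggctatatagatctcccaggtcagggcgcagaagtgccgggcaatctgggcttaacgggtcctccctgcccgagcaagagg
Fabp3: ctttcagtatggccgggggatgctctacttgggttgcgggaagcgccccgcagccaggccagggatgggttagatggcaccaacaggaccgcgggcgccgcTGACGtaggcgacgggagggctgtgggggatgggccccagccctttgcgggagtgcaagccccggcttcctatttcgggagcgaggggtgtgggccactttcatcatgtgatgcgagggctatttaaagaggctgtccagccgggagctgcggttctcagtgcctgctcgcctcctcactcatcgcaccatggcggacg
Dio2: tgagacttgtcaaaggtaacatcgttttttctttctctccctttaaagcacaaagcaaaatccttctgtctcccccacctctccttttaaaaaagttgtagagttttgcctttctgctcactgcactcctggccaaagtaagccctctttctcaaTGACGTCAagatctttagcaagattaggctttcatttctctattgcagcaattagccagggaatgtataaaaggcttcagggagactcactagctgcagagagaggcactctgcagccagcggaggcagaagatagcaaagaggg
The Dio2 window holds the full palindrome TGACGTCA from base 156, and the Ucp1 and Fabp3 windows hold the core TGACG from bases 104 and 102. The palindrome contains the core on both strands. Of all 32851 promoter windows, 1.79% hold TGACGTCA and 20.8% hold TGACG. Among the 40 named genes with a promoter window, 2 (Dio2 and Cycs) hold TGACGTCA and 15 hold TGACG. Named genes were counted by gene, with a match in any of its windows, and the shares over all are by window. The measures are therefore not strictly alike. These matches are letters in a window and do not show that a factor binds there.

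**Figure D2:**
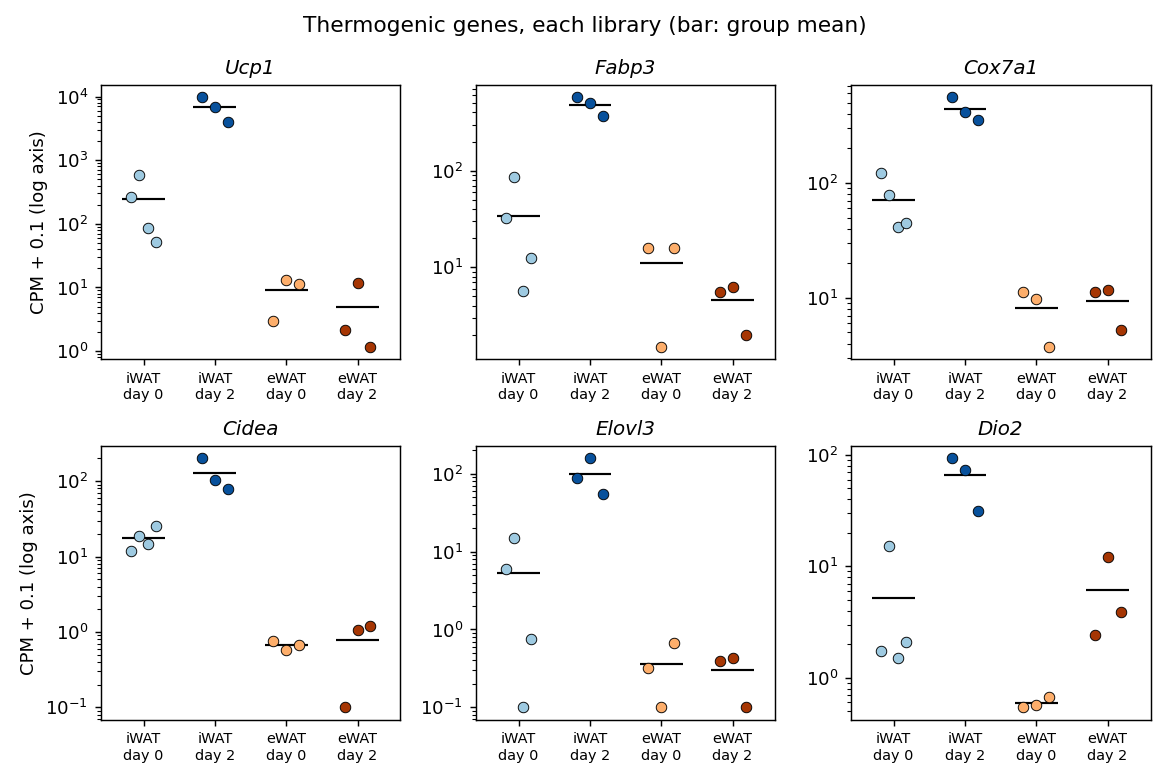
CPM plus 0.1 on a log axis for 6 thermogenic genes, 1 point for each library and a bar at the group mean, by depot and day. In iWAT all day 2 points lie above all day 0 points for the 6 genes, and in eWAT this holds for Dio2 alone among them.

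Other thermogenic genes were near absent in eWAT. Cidea, a lipid droplet protein of brown and beige cells, stood at 11.7, 18.6, 14.7 and 25.5 CPM in iWAT at day 0 and at 201.5, 103.2 and 79.4 CPM at day 2, a log2 change of 2.85 (SE 0.51). Its eWAT libraries held 0 to 4 counts on either day, with group means under 3 counts per library on both days, so no eWAT fold is given. Elovl3, an elongase of very long fatty acids, stood at 5.84, 14.6, 0 and 0.66 CPM in iWAT at day 0 and at 87.2, 158.5 and 55.4 CPM at day 2, a log2 change of 4.16 (SE 0.93). Over the 3 eWAT libraries of a day it had 3 counts at day 0 and 2 at day 2. The proton channel gene Otop1 had a log2 change of 1.85 (SE 0.53) in iWAT, from 22.5 to 52.2 CPM at day 0 to 103.8 to 204.5 CPM at day 2, and 7 counts in all in eWAT on each day. These iWAT changes were not past the adjusted threshold by edgeR in the fit of the 13 libraries. DESeq2 called all 3 in iWAT, with adjusted p values of 2.44e-05 for Cidea, 0.0046 for Elovl3 and 0.012 for Otop1. With only the libraries on the low side of the score, the fitted iWAT change of Elovl3 was 7.16. That value rests on iWAT522 as the only iWAT day 0 library, where Elovl3 had 2 counts.

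Cox7a1, a subunit of cytochrome c oxidase found in muscle and brown fat (chr7:30184171-30186030), was measured well in both depots. It stood at 121.3, 78.6, 41.4 and 45.1 CPM in iWAT at day 0 and at 554.6, 417.7 and 350.4 CPM at day 2. Its eWAT values were 11.1, 9.6 and 3.67 CPM at day 0 and 11.2, 11.7 and 5.13 CPM at day 2. The iWAT groups were separate and the eWAT groups overlapped. Its depot difference was 2.42 (SE 0.72, unadjusted p = 0.0048, adjusted p = 0.697), and 2.67 (SE 0.90) with the library score.

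The remaining fixed thermogenic genes had smaller or unstable differences. Pdk4, a kinase that shuts pyruvate dehydrogenase, had a depot difference of 1.62 (SE 0.80), with 119.4 to 343.7 CPM at day 0 and 444 to 1368 CPM at day 2 in iWAT. Acot11, a brown fat thioesterase, had 1.45 (SE 1.2), the potassium channel gene Kcnk3 had 0.59 (SE 0.60), and the acyl-CoA synthetase gene Slc27a2 had 0.85 (SE 1.04). Cox8b, another oxidase subunit of brown fat, ran from 17.9 to 1224 CPM within iWAT day 0 and from 1.55 to 141.7 CPM within eWAT day 0. Its depot difference was -1.94 (SE 2.16), and with the library score it was 2.11 (SE 0.85), so its sign turned with that covariate. Cpt1b, Gk, Bmp8b and Fgf21 were under the filter on low counts, with at most 10 counts in any library. Ppargc1a, Prdm16, Plin5 and Ppara were not analysed here.

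Beige and inguinal marker genes had 7 of 12 tested members positive, 0 of them at an unadjusted p under 0.05 (1.66% of all features were). The median was 0.24 (0.05 without iWAT538, 0.41 without iWAT518). Sp100, which had the smallest p in that list, had a depot difference of 1.2 (SE 0.71). Tmem26, a surface marker of beige cells, had 0.48 (SE 1.19), with values of 1.4 to 4.22 CPM in iWAT at day 0 and 1.98 to 5.05 CPM at day 2. Of 13 tested white and epididymal marker genes, 10 were negative (55.3% of all features were), 3 of them at an unadjusted p under 0.05 (3.92% of all features were), with a median of -0.63 (-0.29 without iWAT522). These 3 were Sfrp4 (-2.55, SE 1.08), a secreted Wnt antagonist, Agt (-3.48, SE 1.53), the angiotensin precursor, and Tcf21, a transcription factor of visceral stroma that had no count in iWAT at day 2 and counts in 2 of 4 iWAT libraries at day 0. The highest iWAT values of Sfrp4, Agt and Tcf21 at day 0 were all in iWAT522, at 14.6, 32.1 and 8.62 CPM. Lep, the leptin gene, had -0.43 (SE 0.86).

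Among the upstream steps of the cold signal, most tested genes had a positive depot difference by sign, and Adrb3 had a negative one. Of 13 tested genes of adrenergic receptors and cyclic AMP response, 11 were positive (44.6% of all features were) and the median was 0.58. Leaving out single libraries, the median ran from 0.44 to 0.89 (without iWAT522). With the library score 9 were positive and the median was 0.38. Only Prkaca, the catalytic subunit of protein kinase A, was under an unadjusted p of 0.05 in that list (1.66% of all features were, on the positive side). It stood at 69.8 to 138.6 CPM in iWAT at day 0 and 290 to 323.7 CPM at day 2, and at 157.5 to 297.3 CPM over all 6 eWAT libraries, a depot difference of 1.30 (SE 0.50, unadjusted p = 0.0215, adjusted p = 0.697). Adrb3, the main beta-adrenergic receptor of mouse adipocytes, was lower at day 2 by value in both depots, with log2 changes of -0.97 (SE 0.53) in iWAT and -0.75 (SE 0.56) in eWAT and a depot difference of -0.23 (SE 0.76). Of 17 tested regulators of the thermogenic programme, 11 were positive and the median was 0.51 (0.16 without eWAT518, 0.92 without eWAT516). Esrra, a nuclear receptor that drives mitochondrial genes, had 1.38 (SE 0.76), and its iWAT values were 40 to 105.3 CPM at day 0 and 143.1 to 269.5 CPM at day 2. Zfp423, a factor known to hold adipocytes in the white state, had -2.32 (SE 1.13), and -0.87 (SE 0.71) with the library score.

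Most respiratory chain genes had a positive depot difference. Of 44 tested genes of the nuclear-encoded respiratory chain, 35 were positive and the median was 0.60 (0.45 with the library score). It fell to 0.23 without iWAT532 and to 0.35 without eWAT532. In iWAT 20 of them had all day 2 libraries above all day 0 libraries, against 6.97% of all features, and in eWAT 3 did, against 2.39%. Cycs, which encodes cytochrome c, was the 1 member with an unadjusted p under 0.05 (1.66% of all features were, on the positive side). That count is near the share over all features and says nothing about the list. Its values were 486.5 to 892.2 CPM in iWAT at day 0 and 4152, 2219 and 1753 CPM at day 2. Its eWAT range was 296.1 to 531 CPM at day 0 and 394.6 to 846.5 CPM at day 2. The iWAT groups were apart and the eWAT groups overlapped, with a depot difference of 1.64 (SE 0.62, unadjusted p = 0.0193) and 0.95 (SE 0.54) with the library score.

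In the tricarboxylic acid cycle 9 of 17 tested genes were positive and the median was 0.08, and 4 were positive at an unadjusted p under 0.05 (1.66% of all features were). The sign of the median rests on single libraries, with -0.36 without eWAT518, -0.19 without eWAT539 and 0.47 without eWAT538. Suclg1, a subunit of succinate-CoA ligase, stood at 303.6 to 574.3 CPM in iWAT at day 0 and 1262 to 2226 CPM at day 2, against 191.2 to 442.2 CPM over all eWAT libraries. Its depot difference was 1.94 (SE 0.57), and that of Fh1, fumarate hydratase, was 1.63 (SE 0.48). Dlst, a subunit of the oxoglutarate dehydrogenase complex, had 1.72 (SE 0.58). The median of this list was 0.87 with the library score, and 16 of 17 members were then positive.

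Of 20 tested genes of fatty acid oxidation, 13 were positive, with a median of 0.39, and 2 were positive at an unadjusted p under 0.05 (1.66% of all features were). The median was 0.09 without iWAT538 and 0.15 without eWAT518. Etfa, an electron carrier of the oxidation pathway, had a depot difference of 1.79 (SE 0.66), and Cpt2, which reforms acyl-CoA inside mitochondria, had 1.24 (SE 0.54). Cpt2 stood at 297.5 to 358.7 CPM in iWAT at day 0 and 765.3 to 1207 CPM at day 2, while eWAT ran from 280.9 to 676.7 CPM over both days. For pyruvate entry into mitochondria 6 of 12 tested genes were positive, with a median of 0.03 (-0.30 without iWAT532, 0.27 without eWAT516). There Pdhx, a structural part of the pyruvate dehydrogenase complex, stood at 49 to 68.8 CPM in iWAT at day 0 and 152.5 to 231 CPM at day 2, a depot difference of 1.21 (SE 0.45). In glycolysis and glucose uptake 8 of 11 were positive, with a median of 0.29 (0.11 without eWAT538, 0.71 without eWAT532). Ldhb, a lactate dehydrogenase subunit, had 2.30 (SE 0.81) and iWAT values of 337.4 to 419.8 CPM at day 0 and 1082 to 2206 CPM at day 2.

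Lipid synthesis genes had like median changes in the 2 depots. Of 13 tested genes of de novo fatty acid synthesis, 6 were positive, and the median change was 0.43 in iWAT and 0.45 in eWAT. The median depot difference was -0.23, and it ran from -0.54 to 0.15 when single libraries were left out. All eWAT day 2 libraries lay above all day 0 libraries for 5 of the 13 (2.39% of all features), against 2 in iWAT (6.97%). Fasn, fatty acid synthase, stood at 605.8, 2770 and 2264 CPM in eWAT at day 0 and 4092, 7139 and 4214 CPM at day 2. Its iWAT values were 2344 to 8145 CPM at day 0 and 5053 to 8603 CPM at day 2. The eWAT groups were apart and the iWAT groups overlapped, but the depot difference of -1.24 (SE 0.79) did not pass. Acss2, which makes acetyl-CoA from acetate, had a log2 change of 1.69 (SE 0.62) in eWAT and 0.26 (SE 0.56) in iWAT, a depot difference of -1.43 (SE 0.83).

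For glycerol phosphate and triglyceride synthesis 3 of 9 tested genes were positive, while the median change was 0.38 in iWAT and 0.40 in eWAT. Gpd1, which makes glycerol phosphate, had day 2 libraries above all day 0 libraries in both depots, with log2 changes of 1.80 (SE 0.40) in iWAT and 0.74 (SE 0.43) in eWAT. Of 10 tested genes of lipolysis and the lipid droplet coat, 7 were positive and the median was 0.69 (0.26 with the library score, 0.38 without eWAT517). Of 11 tested genes of lipoprotein lipase and fatty acid uptake, 4 were positive, led by Fabp3. For sterol synthesis 9 of 17 were positive, with Hmgcs1, HMG-CoA synthase, at 1.30 (SE 0.51). At an unadjusted p under 0.05 this list had 1 positive member (1.66% of all features were) and 1 negative member (3.92%).

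**Figure D3:**
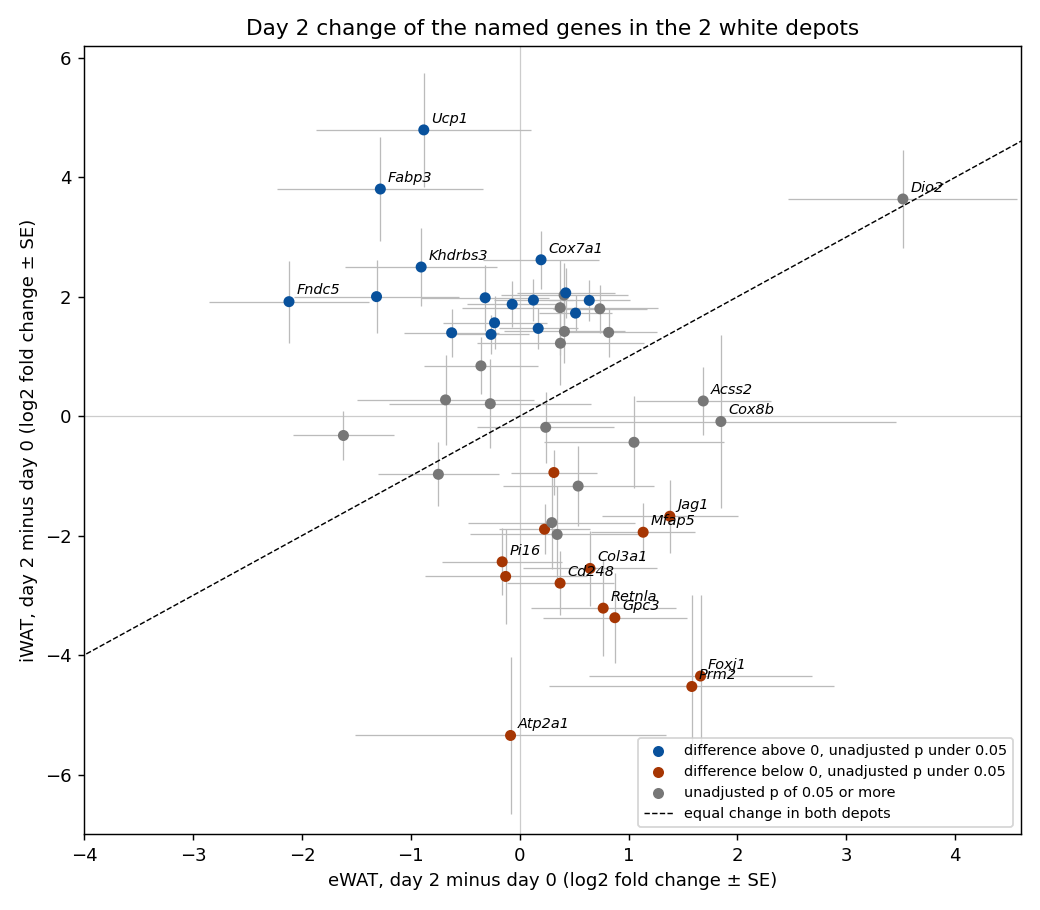
Log2 change from day 0 to day 2 in eWAT (x axis) and iWAT (y axis) with SE bars for the 48 named genes with a fitted difference in both depots. Ucp1 at 4.79 in iWAT and -0.88 in eWAT lies farthest above the line of equal change, Dio2, whose eWAT day 0 counts are under the floor, lies near it, and matrix genes such as Gpc3 and Col3a1 lie below it.

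Most genes of the extracellular matrix had a negative depot difference. Of 21 tested genes of collagens and extracellular matrix, 15 were negative, 4 of them at an unadjusted p under 0.05 (3.92% of all features were), and the median was -0.57 (-0.90 with the library score). It ran from -0.82 without eWAT532 to -0.30 without eWAT539. In iWAT 6 of them had all day 2 libraries below all day 0 libraries (4.54% of all features), and in eWAT 1 did (2.6%). These are whole-tissue libraries, in which fewer cells of a type and less RNA per cell cannot be told apart.

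Mfap5, a microfibril protein of the fibroblast matrix (chr6:122513584-122529290), had the smallest p among the features named here. It stood at 27.2, 18.3, 36.5 and 40.4 CPM in iWAT at day 0 and at 8.59, 7.13 and 8.03 CPM at day 2. In eWAT it stood at 34.5, 84.6 and 95.7 CPM at day 0 and at 79.3, 236.6 and 155.5 CPM at day 2. Day 2 was below day 0 in iWAT with no overlap, and in eWAT the groups overlapped. The depot difference was -3.08 (SE 0.68, unadjusted p = 0.000549, adjusted p = 0.697), and -3.08 (SE 0.70) with the library score.

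Cd248, endosialin of fibroblasts and pericytes (chr19:5068078-5070640), stood at 19.8, 7.04, 23.9 and 30.5 CPM in iWAT at day 0 and at 3.3, 2.68 and 2.67 CPM at day 2. Its eWAT values were 22.3, 26.7 and 22.3 CPM at day 0 and 16.4, 43.5 and 32.4 CPM at day 2. The depot difference was -3.17 (SE 0.72, unadjusted p = 0.000674). Gpc3, a cell surface proteoglycan (chrX:52272426-52613974), stood at 24, 9.58, 42.8 and 8.95 CPM in iWAT at day 0 and at 1.98, 2.68 and 1.34 CPM at day 2, against 18.8 to 86.4 and 45.9 to 116.5 CPM in eWAT. Its depot difference was -4.25 (SE 1.00), and -2.96 (SE 0.71) with the library score. In both genes the iWAT groups were apart and the eWAT groups overlapped.

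Col3a1, a fibrillar collagen chain (chr1:45311538-45349706), stood at 809.8, 1278, 1448 and 475.9 CPM in iWAT at day 0 and at 253, 128.4 and 132.7 CPM at day 2. In eWAT it stood at 314.2, 427.5 and 1247 CPM at day 0 and at 659.9, 1798 and 653.2 CPM at day 2. Its depot difference was -3.19 (SE 0.87), and -2.07 (SE 0.69) with the library score. Fbn1, the fibrillin that Mfap5 binds, had -2.54 (SE 0.82), the small proteoglycan gene Lum had -2.41 (SE 0.92), and the protease inhibitor gene Timp3 had -1.22 (SE 0.56). For Fbn1, Lum and Timp3 all iWAT day 2 libraries were below all day 0 libraries.

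Markers of adipocyte precursors lay on the same side. Of 9 tested members, 7 were negative and the median was -0.38 (-0.90 without eWAT516, -0.28 without iWAT522), and in iWAT 6 had all day 2 libraries below all day 0 libraries, against 4.54% of all features. Pi16, a marker of early adventitial precursors (chr17:29318796-29328903), stood at 54.2, 33, 117.2 and 193.2 CPM in iWAT at day 0 and at 18.2, 13.7 and 23 CPM at day 2. Its eWAT range was 55.9 to 102.5 CPM at day 0 and 55.1 to 87.8 CPM at day 2, with overlap. Its depot difference was -2.28 (SE 0.77, unadjusted p = 0.011). The summed level of the list was 1062 to 1972 CPM in iWAT at day 0 and 659.8 to 831.3 CPM at day 2, and 640 to 1352 then 431.5 to 1067 CPM in eWAT.

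**Figure D4:**
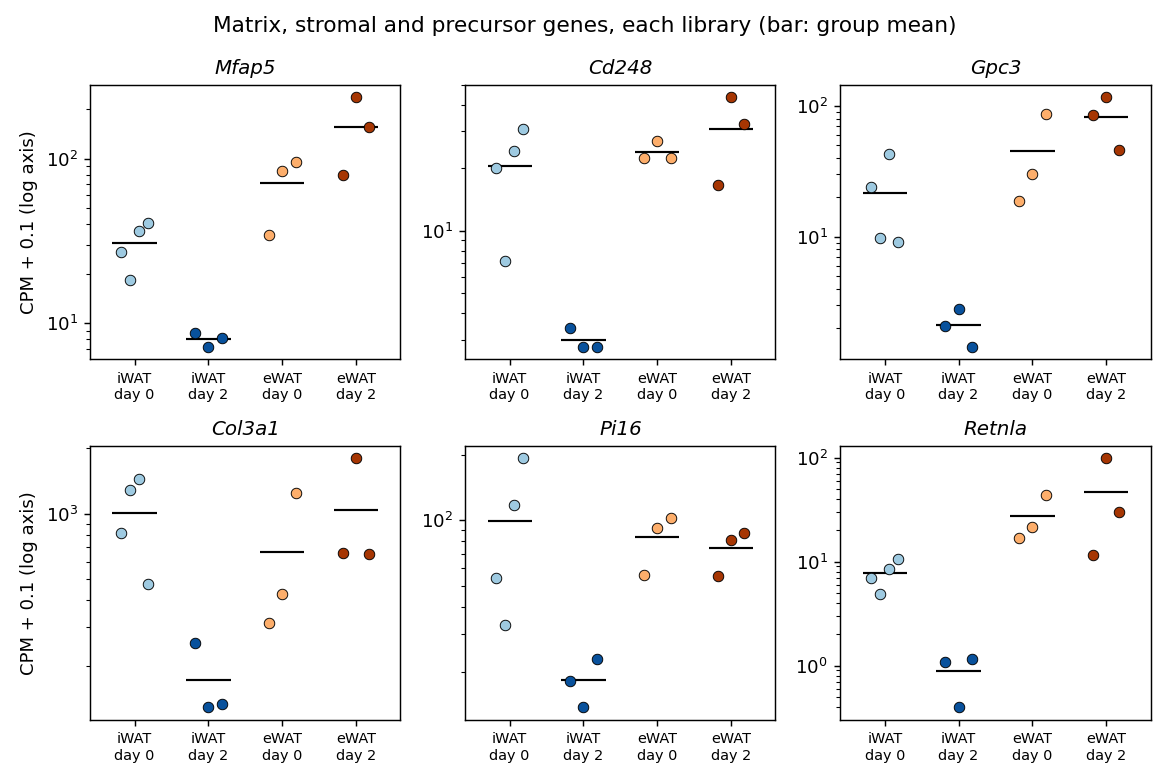
CPM plus 0.1 on a log axis for 6 matrix, stromal and precursor genes, 1 point for each library and a bar at the group mean, by depot and day. In iWAT all day 2 points lie below all day 0 points for the 6 genes, and in eWAT the days overlap.

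Other features with small p values on the positive side came from several processes. Fndc5, the precursor of irisin (chr4:129136870-129144593), moved in opposite directions by value. Its iWAT libraries were at 1.3, 2.82, 2.11 and 7.62 CPM at day 0 and 16.9, 14.9 and 8.56 CPM at day 2, and its eWAT libraries at 14.8, 36.1 and 8.47 CPM and then 3.46, 1.95 and 8.1 CPM. Neither pair of groups overlapped, and the depot difference was 4.04 (SE 1.01, unadjusted p = 0.00144, adjusted p = 0.697). Dagla, a diacylglycerol lipase that makes an endocannabinoid, had 1.82 (SE 0.50), with iWAT at 5.19 to 9.01 CPM at day 0 and 25.4 to 29.4 CPM at day 2. Khdrbs3, an RNA binding protein, had 3.40 (SE 0.96), Adam12, a membrane protease, had 2.02 (SE 0.60), and the uncharacterised transcript E330011O21Rik had a fitted 3.32 (SE 0.98), with 2, 1 and 3 counts in eWAT at day 2, a mean under the floor of 3 counts per library. Sla2, an adaptor of lymphocyte receptors, had 17.6 to 62 CPM in all iWAT libraries. In eWAT it had 12 counts at day 0 and 0 at day 2, which is at least 1.18-fold lower against a floor of 3 counts per library.

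On the negative side, Retnla, a secreted protein of alternatively activated macrophages (chr16:48842609-48844461), stood at 4.79 to 10.6 CPM in iWAT at day 0 and 0.3 to 1.07 CPM at day 2, which is 3, 1 and 4 counts and a mean under the floor. In eWAT it stood at 16.6 to 44 CPM at day 0 and 11.5 to 98.7 CPM at day 2, and the fitted depot difference, which rests on those few counts, was -3.98 (SE 1.04, unadjusted p = 0.00214). Zfp704, a zinc finger protein, had -2.12 (SE 0.59). Jag1, a Notch ligand, had -3.05 (SE 0.87), and in eWAT its day 2 libraries (9.09 to 15.3 CPM) lay above its day 0 libraries (3.28 to 8.19 CPM). Foxj1, the master regulator of motile cilia, had 2, 1 and 1 counts in iWAT at day 2, a mean under the floor, and 66 of its 91 iWAT day 0 counts were in iWAT522. Its fitted depot difference was -6.01 (SE 1.71), and -4.91 without iWAT522. Ak7, an adenylate kinase of cilia, had no count in the iWAT day 2 libraries and 4.78 CPM on average (SD 7.2, n = 4) at day 0, which is at least 5.64-fold lower at day 2 against 3 counts per library. Its iWAT day 0 mean rests on iWAT522, at 15.6 CPM against 0.84 to 1.4 CPM in the others, and without it the mean was 1.18 CPM (SD 0.3) and the bound at least 1.4-fold lower.

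Markers of other tissues moved with the depot difference and gave the most negative lists. All 12 tested skeletal muscle markers were negative, with a median of -3.58 (-3.87 with groups at 0 set to 3 counts per library). Their summed level was 48.9, 3779, 427.5 and 1764 CPM in iWAT at day 0 and 85.4, 27.5 and 49.2 CPM at day 2. In eWAT it was 1427, 64.6 and 41 CPM at day 0 and 434.5, 77 and 44.6 CPM at day 2. The libraries iWAT517 and iWAT522 held most of the iWAT day 0 signal. Leaving out single libraries moved the median between -5.17 (without eWAT516) and -2.51 (without iWAT517). Atp2a1, the calcium pump of fast muscle, had -5.26 (SE 1.90), and Myh1, a fast myosin heavy chain, had 800 of its 864 iWAT day 0 counts in iWAT517 and 2 counts in all at iWAT day 2.

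Of 13 tested markers of epididymis and testis, 12 were negative, with a median of -5.00 (-4.14 with groups at 0 set to 3 counts per library). They summed to 129.9, 10.2, 116.5 and 942.5 CPM in iWAT at day 0 and to 42.1, 5.79 and 9.35 CPM at day 2. In eWAT, which lies against the epididymis, they summed to 23220, 199 and 2134 CPM at day 0 and to 39200, 2550 and 625.9 CPM at day 2. Prm2, a protamine that packs sperm DNA, had -6.11 (SE 2.00), with 136.9 CPM in iWAT522 and 0.54 to 4.95 CPM at day 2. The list's median was -2.78 without iWAT516 and -3.13 without iWAT522, and from -5.45 to -4.48 without each of the other libraries.

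Of 9 tested mesothelial markers, 8 were negative, 4 at an unadjusted p under 0.05 (3.92% of all features were), and the median was -2.73 (-2.62 with groups at 0 set to 3 counts per library). The list's median was -1.18 without iWAT522, -4.18 without eWAT516 and -4.64 without iWAT532. Their sum was 50.3 to 319.3 CPM in iWAT at day 0 and 36.5 to 97 CPM at day 2, against 345.6 to 1441 and 367.6 to 910.2 CPM in eWAT. Msln, mesothelin, had 5 counts in all in iWAT at day 0 and 0 at day 2, so no iWAT fold is given. In eWAT Msln stood at 5.75, 6.56 and 5.64 CPM at day 0 and 19.6, 16.9 and 15.7 CPM at day 2, with no overlap and a log2 change of 1.53 (SE 0.69).

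Epithelial and skin markers had 7 of 9 tested members negative and a median of -1.96, which ran from -3.58 without eWAT516 to -0.56 without eWAT532. They summed to 13740, 7453, 7465 and 240.3 CPM in iWAT at day 0 and to 311.6, 2258 and 365.1 CPM at day 2. In eWAT they summed to 237.3 to 4039 CPM at day 0 and 206 to 5129 CPM at day 2. The libraries with the highest sums (iWAT516, iWAT517, iWAT518, eWAT518, eWAT532 and eWAT538) are those with the high library scores. The sign of the score was set by a keratin of this list, so the direction of that match was in part set beforehand. The part of these tissues in the negative depot differences of matrix and stromal genes was not tested.

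Immune, vascular and nerve markers showed smaller values. Lymphocyte markers had 11 of 13 negative with a median of -0.55, and with the library score the median was -0.01. Without eWAT539 it was 0.25, so 1 library turned its sign. The whole list summed to only 18.4 to 56.2 CPM in the eWAT libraries, so these signs rest on few eWAT counts. Ms4a1, the CD20 gene of B cells, had 38.3 to 154.6 CPM over the iWAT libraries and 2 counts in all in eWAT at day 0 against 16 at day 2. The lymph node stroma markers had 6 of 8 negative, with a median of -0.30 (1.47 without eWAT539, 0.03 without eWAT516). They summed to 647.1 to 1743 CPM in iWAT at day 0 and 1657 to 2642 CPM at day 2. In eWAT they summed to 20.8 to 51.8 CPM and then 28.7 to 68.8 CPM, so their signs also rest on few eWAT counts. Their member Cxcr5, a receptor of follicular B cells, had 3 counts in eWAT at day 0 and 7 at day 2. Macrophage markers had 8 of 11 negative with a median of -0.39 (-1.01 without eWAT517), and Trem2, a receptor of lipid-associated macrophages, had 5 counts in iWAT at day 0 and 0 at day 2, both under the floor.

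Endothelial markers had 5 of 9 negative, with a median of -0.37 (-1.04 without eWAT518, -0.07 without eWAT516), and von Willebrand factor (Vwf) had -2.08 (SE 1.09). Mural and smooth muscle markers had 4 of 7 negative, with a median of -0.01 (-1.14 without eWAT516, 0.48 without iWAT522 or eWAT539), and Cspg4, the NG2 proteoglycan of pericytes, had -1.49 (SE 1.13). Of 7 tested Schwann cell and sympathetic nerve markers, 5 were negative and the median was -1.05 (-0.21 without eWAT532). Adipocyte markers had 4 of 8 positive and a median of 0.03, which was -0.62 without eWAT518 and 0.37 without eWAT516. Retn, the resistin gene of white adipocytes, had 1.01 (SE 0.77), and Krt15, a keratin of basal epithelium, had 3 counts in all in iWAT at day 2 against 36 at day 0.

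Immediate early genes had 9 of 16 positive with a median of 0.18 (0.01 without iWAT539, 0.55 without iWAT517). Among them Nr4a1, an orphan nuclear receptor, stood at 4.64, 9.13 and 5.36 CPM in eWAT at day 0 and 1.73, 2.27 and 2.16 CPM at day 2 with no overlap, and its depot difference was 1.30 (SE 0.61). Clock genes had 6 of 11 positive with a median of 0.12 (-0.31 without eWAT517), and Per2, a repressor of the clock, had -1.26 (SE 0.55). Cell cycle genes had 6 of 15 positive with a median of -0.27 (0.22 without iWAT516), and Pcna, the replication clamp, had -1.71 (SE 0.96), which was 0.14 with the library score.

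Secreted factors of fat had 5 of 15 positive with a median of -0.28 (-0.71 without iWAT532, 0.02 without eWAT539), and Sfrp5, a Wnt inhibitor of adipocytes, had 20 counts in iWAT at day 0 and 2 at day 2. The creatine and calcium cycling list had 7 of 10 negative and a median of -0.63 (-0.93 without iWAT516, -0.27 without iWAT517), and 2 were negative at an unadjusted p under 0.05 (3.92% of all features were). Those 2 were Atp2a1 and Ckm, which are also in the skeletal muscle list. Ckb, the creatine kinase of the beige creatine cycle, had 0.95 (SE 1.10), and -0.47 with the library score.

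**Figure D5:**
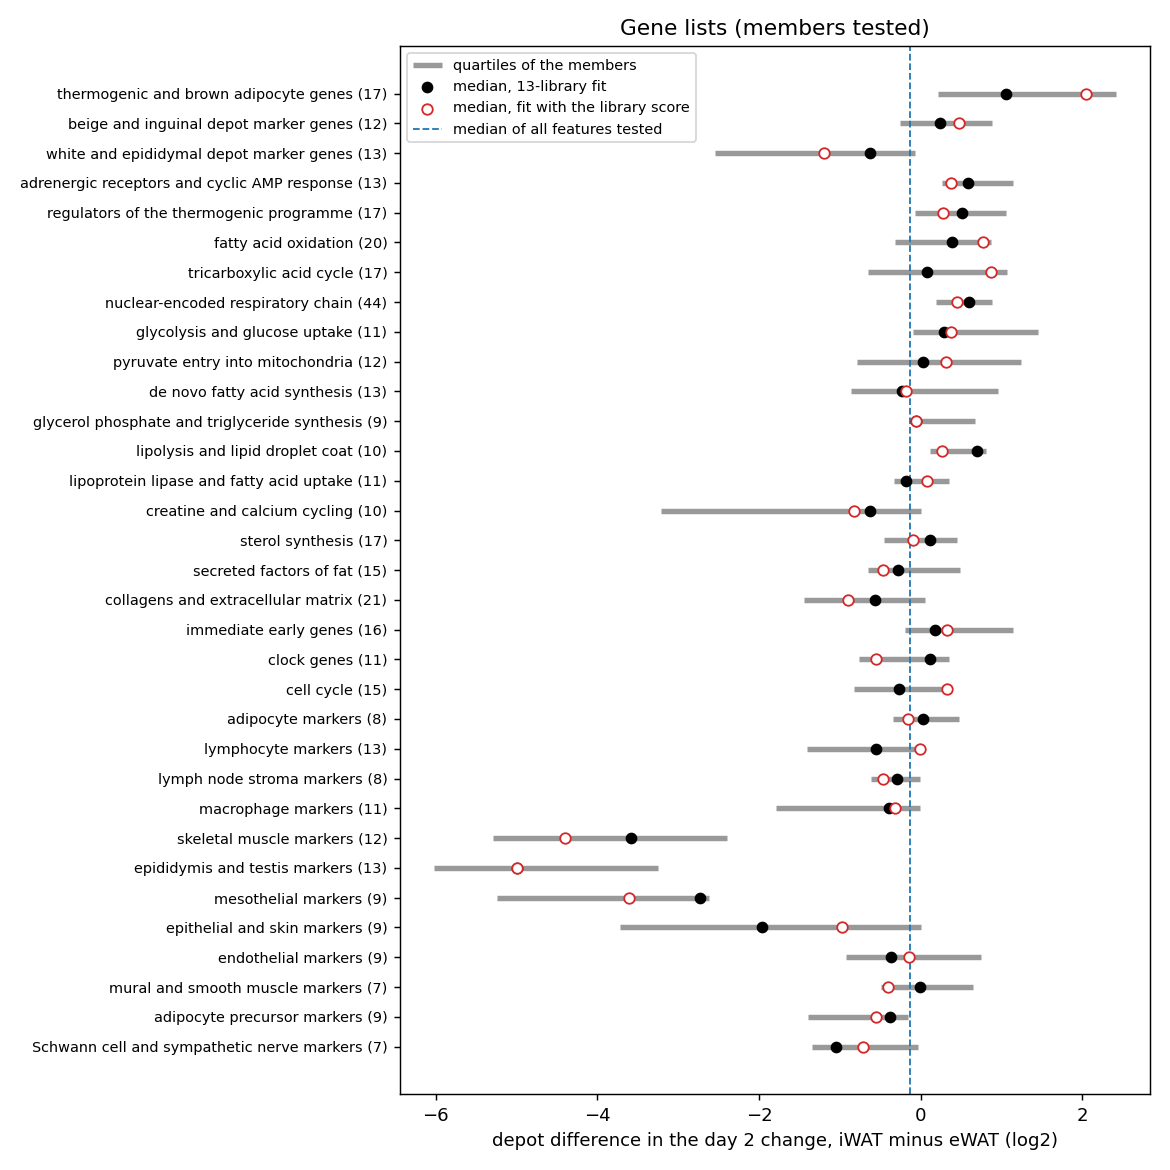
Median depot difference (log2, black points) of the tested members of each gene list with a bar over the quartiles, beside the median from the fit with the library score (open red points) and the median of all features (dashed line at -0.13). The thermogenic list lies highest at 1.06, and the muscle, epididymis and testis, and mesothelial lists lie lowest.

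The same depot difference at day 4, from a fit of all 31 libraries, shares its day 0 libraries with day 2, so both are given side by side only. At day 4 it was 2.57 (SE 1.34) for Ucp1, 4.50 (SE 1.18) for Fabp3 and 2.58 (SE 0.80) for Cox7a1. For the matrix and precursor genes it was -3.00 (SE 0.73) for Mfap5, -3.42 (SE 1.06) for Cd248, -2.40 (SE 1.17) for Gpc3, -1.29 (SE 0.81) for Col3a1 and -3.49 (SE 0.78) for Pi16. The muscle list had a median of -0.87 at day 4 and the epididymis and testis list -0.62, against -3.58 and -5.00 at day 2. The thermogenic list had a median of 1.98 at day 4, and the matrix list -0.92.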

How the data were processed

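Per the labels' protocols, depots were snap frozen, RNA was extracted with Trizol and libraries followed standard Illumina methods. The authors deposited raw counts per RefSeq transcript, 1 table per depot. Per the submitters' processing notes, cutadapt, BWA and build mm10 were used. Counting, strand and duplicates are not given in the sources used here, so overlapping or antisense genes and near-identical copies are uncertain. Missing values and rows were read as 0. The 2 white tables hold 17170 accessions, 15380 in both, and 16871 took a RefSeq (GRCm38.p6) symbol and 105 a GENCODE M21 symbol.

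The counts of the 13 libraries went into edgeR 4.0.16 (R 4.3.3) with TMM scaling, a filterByExpr minimum of 10 (15 in total), a mean for each depot and day, two-sided robust quasi-likelihood F-tests and adjustment by Benjamini-Hochberg over all features (threshold 0.05). The biological coefficient of variation was 0.559, and the SE is the absolute log2 value over the square root of F. CPM of genes use TMM library sizes, summed CPM plain totals. Replicate pairs differed by a chi-square of 29.9 to 129.8 per degree of freedom. Molecular identifiers are not named, and floors (3 counts) cover counting error only. The library score projects log2 CPM deviations (prior count 2) from the depot mean over all days, so it can take up part of a day difference. Alternatives included limma 3.58.1 and DESeq2 1.42.0.

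Members, lists and tests were chosen with earlier results of these data known. Named genes were (a) 24 fixed genes (20 with a row, 16 tested), (b) the largest differences past the threshold, of which there were 0, (c) the smallest p in each list, and (d) the 10 smallest p in each direction among features with a group mean of 5 CPM or more and days that do not overlap in 1 depot. The motif TGACG, Agt, Tcf21, Esrra, Dlst, Cpt2, Fasn, Fbn1, Lum, Timp3, Ckm and Atp6v0a4 were added after values were seen. Some genes that the lists hold are counted but not reported here by name.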

Additional observations from a re-analysis of the deposited data

Results flagged for a closer look

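Within the 4 iWAT day 0 libraries, a few values stood far from the other 3 by a gap test that flags about 5% of groups by chance, and 60 named genes and 12 marker lists were looked at. Dio2 was at 15.2 CPM in iWAT517 against 1.4 to 1.99 CPM in the others, below all 3 day 2 libraries. Myh1 was at 225.3 CPM in iWAT517. Ak7 was at 15.6 CPM in iWAT522, and the same library had the outlying sums of epididymis and testis markers (942.5 CPM) and of endothelial markers (939.3 CPM).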

How the results depend on the processing

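The depot difference gave 0 calls in each direction under limma voom, RLE size factors, no filter, scaling by library size alone, 21 or 31 libraries in the fit, features in both tables only, summed accessions, either library score as a covariate, and without each single library (0 to 0). DESeq2 gave 1 higher (Ucp1, 5.63) and 1 lower (Atp6v0a4, -20.17). The fit with the library score and the replicate block gave 1 lower (Lcn9, -57.66). The values of Atp6v0a4 and Lcn9 are too large to be read as folds. The low side of the score had 1 library left in iWAT day 0 and in eWAT day 2, assumed to vary like the others. There the fitted values were -9.67 for Tnp1, -9.73 for Tnp2, -9.44 for Prm1 and -11.36 for Cypt12. For the iWAT change, DESeq2 gave 73 higher and 73 lower, all 31 libraries gave 6 and 1, and the low side gave 5 and 199. The eWAT change gave 0 in all settings that fit it. The cause of these moves was not tested.

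The replicate block gave 0 higher and 0 lower, with 794 and 922 features at an unadjusted p under 0.05. Same-numbered iWAT and eWAT libraries deviated with correlations of -0.052, -0.333, 0.382, -0.205, 0.324 and 0.159 in the order of the numbers, day 0 first, and not every library correlated best with its own number, so the numbers were not taken as pairs.

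Signs of 16 named genes turned under some setting. With the library score, Cox8b was 2.11, Ckb -0.47, Pcna 0.14 and Cspg4 0.02. With the score from brown fat alone, Cox8b was 1.75 and Ckb -0.34. With score and replicate block, Cox8b was 1.62, Adrb3 2.31, Pdk4 -1.29, Ckb -0.75, Kcnk3 -1.20, Lep 1.45, Dio2 -0.19, Pdhx -0.15, Atp2a1 0.35, Per2 0.44, Retn -0.60 and Vwf 1.83. On the low side, Cox8b was 3.13, Tmem26 -0.69, Pcna 0.94, Retn -0.37 and Cspg4 0.18. Leaving out single libraries, Adrb3 ran from -0.83 to 0.22, Ckb from -0.14 to 1.64, Lep from -0.80 to 0.05, Dio2 from -0.28 to 1.73, Slc27a2 from -0.09 to 1.68 and Tmem26 from -0.09 to 1.54. The other 32 named genes with a fitted difference kept their sign in all settings.

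Limits: 3 or 4 libraries a group and counts of 0 to 5 in eWAT leave the eWAT change of Cidea, Elovl3 and Otop1 unmeasured at this depth.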
